A study of Mus musculus with 4 samples.

Results

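Creb3l1, Nr2f1, Nr2f2, Ebf1, Runx1, Runx2, Prrx1, Twist1, Twist2 and Scx encode transcription factors known from mesenchymal cells such as fibroblasts, bone and tendon. These 10 genes, of 31055 features in the files, were chosen by symbol from a list drawn up with earlier results of these data known. The list is thus not independent of the data, and shares over all genes printed beside its counts are a description only. Levels of the 10 genes were followed in mouse muscle stem cells, the Pax7-expressing cells that regenerate muscle fibres. GFP-positive cells were isolated from Tg:Pax7-nGFP animals of 2 to 4 months, in which Pax7 regulatory sequence drives a nuclear green fluorescent protein. Every group thus carries this transgene and was started from cells sorted for its fluorescence. Expression was read by 10x Genomics droplet single-cell RNA sequencing in 4 libraries, 1 per group. Quiescent EOM cells (extraocular muscle, which moves the eye) and quiescent TA cells (tibialis anterior, a muscle of the lower leg) were sequenced straight after sorting. Activated EOM and activated TA cells were first plated on Matrigel and grown for 4 days in growth medium at 3% oxygen. How many mice went into a library is not given in the sources used here.

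In development, Prrx1 and the Twist genes mark limb and craniofacial mesenchyme, Runx2 is required for bone and Scx for tendon, and Nr2f1 and Nr2f2 are orphan nuclear receptors that pattern many tissues. Creb3l1 is a membrane-bound factor of the endoplasmic reticulum that is released by proteolysis and is required for normal type I collagen output of bone-forming cells. Col1a2 encodes a chain of type I collagen, the main fibrillar collagen of connective tissue, and serves here as the matrix gene with which each factor is set in the same cell.

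After filtering, 2934 to 5634 cells per library remained, with 15449783 to 17582000 UMIs (unique molecular identifiers, each marking 1 captured transcript) in the quiescent and 103789148 to 124431011 in the activated libraries. The median cell held 4665 UMIs in quiescent EOM, 5033 in quiescent TA, 21291 in activated EOM and 23381 in activated TA. Levels are CPM, the UMIs of a gene per 1000000 UMIs summed over the cells of a library, and brackets give exact 95% intervals that cover counting error only. With 1 library per group there is no replicate check and no test, and all counts of genes are by size alone. Library pairs shared 5 to 12 cell barcodes. Each of the 10 muscle markers looked at was found in every library (they summed to 2080 CPM in EOM and 3471 in TA before culture, and to 4133 and 5046 after it), and Pax7 was at 289 and 389 CPM before and 75.8 and 55.2 after. In quiescent TA 40.5% of barcodes had over 10% mitochondrial UMIs, against 11.7% to 24.7% in the others. A cluster of 239 cells in quiescent EOM carried fibroblast markers and a cluster of 310 cells in quiescent TA carried tenocyte (tendon cell) markers. The TA cluster also had the immune marker C1qa among its top 10 genes, so its foreign RNA was mixed. Dcn, a fibroblast proteoglycan, stood at 305 CPM in the EOM cluster against 17.3 in the other EOM cells. In the TA cluster it was at 238 against 1.93 in the other TA cells. Both clusters held Pax7 at or above the level of the other cells (452 and 451 CPM) and were kept.

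The genes lie on different chromosomes in GENCODE vM21 on GRCm38, apart from Prrx1 (chr1:163245119-163313710, minus strand) and Twist2 (chr1:91801461-91848028, plus strand). Creb3l1 is at chr2:91982328-92024502, Nr2f2 at chr7:70351944-70366735, Nr2f1 at chr13:78188973-78199757, Runx1 at chr16:92601466-92826149 and Runx2 at chr17:44495987-44814797, all on the minus strand. Ebf1 is at chr11:44617317-45008091, Twist1 at chr12:33957671-33959829 and Scx at chr15:76457452-76459458, on the plus strand. Whether counting used strand is not given in the sources used here, so reads of overlapping genes on the other strand may not be told apart. Scx overlaps Bop1, which was at 18.5 and 19.4 CPM in quiescent and 45.1 and 49.8 in activated EOM and TA, in that order, Runx2 overlaps Supt3 (13.3, 13.5, 22.3 and 20.7 CPM), and Nr2f1 overlaps A830082K12Rik (4.66, 2.14, 1.63 and 0.193 CPM). On its own strand, Prrx1 overlaps Gm26523, at 16.5, 23.3, 5.09 and 3.61 CPM.

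RefSeq promoter sequence (GRCm38.p6) was at hand for 8 of the 10 genes, in 11 windows, and the 250 bases before each start were searched on both strands. Creb3l1 and Scx had no entry. The motifs were the E-box CANNTG, which bHLH factors such as Twist1 and Scx bind, TGTGGT for RUNX factors, AGGTCA for nuclear receptors and TCCC followed after any 2 bases by GGGA for EBF factors. Of the 11 windows, 5 held an E-box, 2 held TGTGGT, 1 held AGGTCA and 0 held the EBF motif, against 66.2%, 14.0%, 14.0% and 0.779% of 32851 promoter windows of the same length. Shown are the window of Runx2 (chr17:44814628-44814877, minus strand), the gene of the list with the largest activation ratio in EOM and the window with the most kinds of match, the second Ebf1 start (chr11:44619978-44620227, plus strand), and Col1a2 (chr6:4505368-4505617, plus strand), which held none of the 4 motifs. Capitals mark matches; in Runx2 the RUNX motif and the E-box share 4 bases. A match is a string of letters and not a bound site.
Runx2: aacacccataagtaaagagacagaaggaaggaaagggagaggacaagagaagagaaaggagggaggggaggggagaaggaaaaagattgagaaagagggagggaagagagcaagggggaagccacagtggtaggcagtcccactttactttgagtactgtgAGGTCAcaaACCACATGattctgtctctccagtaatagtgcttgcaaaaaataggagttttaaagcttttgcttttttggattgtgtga
Ebf1: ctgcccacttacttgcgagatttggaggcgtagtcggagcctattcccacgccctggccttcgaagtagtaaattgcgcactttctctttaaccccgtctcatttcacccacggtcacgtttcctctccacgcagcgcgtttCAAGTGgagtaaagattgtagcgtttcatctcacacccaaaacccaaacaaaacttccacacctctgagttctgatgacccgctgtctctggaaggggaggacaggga
Col1a2: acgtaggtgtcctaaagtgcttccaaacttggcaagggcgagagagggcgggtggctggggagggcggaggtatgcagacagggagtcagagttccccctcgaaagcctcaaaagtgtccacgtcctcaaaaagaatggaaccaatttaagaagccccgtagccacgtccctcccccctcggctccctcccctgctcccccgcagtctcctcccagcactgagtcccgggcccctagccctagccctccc

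Creb3l1 stood at 35.3 CPM (32.5 to 38.2) in quiescent EOM, 27.5 (24.96 to 30.3) in quiescent TA, 107 (105 to 109) in activated EOM and 43.5 (42.2 to 44.8) in activated TA. Activated EOM was thus the high library, and no neighbours in the order of the 4 levels had overlapping intervals. The muscles were close in quiescence, at 1.28-fold (1.13 to 1.45) EOM over TA, and further apart after culture, at 2.46-fold (2.37 to 2.54).

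The nuclear receptors were higher in EOM in both states, except that Nr2f2 in quiescent cells turned from a log2 ratio of 0.79 to -0.38 with at most 5% mitochondrial UMIs (265 EOM and 47 TA cells). Nr2f1 was at 5.92 CPM (4.83 to 7.17) in quiescent EOM and 6.47 (6.03 to 6.93) in activated EOM, intervals that overlap. In TA it rested on 3 UMIs in quiescent cells (0.194 CPM, 0.0400 to 0.567) and 32 in activated cells (0.308 CPM, 0.211 to 0.435), also overlapping. The EOM to TA ratio was 30.5 (10.1 to 150.1) in quiescent and 21.0 (14.7 to 30.9) in activated cells, so Nr2f1 separated the muscles and hardly the states. Nr2f2, a factor of venous and mesenchymal cells, was found in both muscles, at 11.9 CPM (10.3 to 13.6) in quiescent EOM, 6.47 (5.27 to 7.87) in quiescent TA, 36.1 (35.1 to 37.2) in activated EOM and 15.3 (14.6 to 16.1) in activated TA. All 4 levels were apart, with EOM above TA by 1.84-fold (1.44 to 2.35) before and 2.35-fold (2.22 to 2.49) after culture.

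Ebf1, a factor of the early B cell and adipocyte lineages that is also made by stromal cells, was at 13.9 CPM (12.2 to 15.7) in quiescent EOM and 1.55 (0.995 to 2.31) in quiescent TA. After culture it was at 30.4 (29.4 to 31.4) in EOM and 17.0 (16.2 to 17.8) in TA. Quiescent TA was the low library, at 24 UMIs, so the EOM to TA ratio was 8.93 (5.86 to 14.2) in quiescent and 1.79 (1.69 to 1.89) in activated cells. The quiescent log2 ratio depended on the cells kept: on the log2(CPM + 1) scale it was 2.54, but 1.88 with up to 20% mitochondrial UMIs, 1.71 with up to 5% and 1.45 over all deposited barcodes. The deposited barcodes include 16 endothelial-like cells of quiescent TA that were otherwise left out and held 32 Ebf1 UMIs (309 CPM). These 16 cells were also left out at the 20% and 5% limits. Their part in the ratio over all deposited barcodes was not tested.

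Runx1 and Runx2, which share the DNA-binding Runt domain, were ordered oppositely by state. Runx1, a factor of blood formation that injured muscle also makes, was at 483 CPM (473 to 494) in quiescent EOM and 764 (750 to 778) in quiescent TA, but at 124 (122 to 125) in activated EOM and 137 (135 to 139) in activated TA. Runx2 was at 1.76 (1.20 to 2.50) in quiescent EOM, 4.596 (3.59 to 5.80) in quiescent TA, 39.5 (38.4 to 40.6) in activated EOM and 63.8 (62.2 to 65.3) in activated TA. Over all cells both were lower in EOM than in TA in each state: the ratio for Runx1 was 0.633 (0.615 to 0.651) and then 0.902 (0.881 to 0.922), and for Runx2 0.384 (0.243 to 0.593) and then 0.619 (0.596 to 0.642). Runx2 was under 5 CPM in both quiescent libraries.

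Prrx1, a paired-related homeobox factor of limb mesenchyme, was at 49.3 CPM (46.0 to 52.6) in quiescent EOM, 71.7 (67.6 to 76.1) in quiescent TA, 100.1 (98.4 to 101.9) in activated EOM and 71.5 (69.9 to 73.2) in activated TA. The TA libraries overlapped, while EOM went from the lowest to the highest of the 4. The EOM to TA ratio was 0.687 (0.628 to 0.751) in quiescent and 1.40 (1.36 to 1.44) in activated cells.

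The bHLH factors followed no common order. Twist1, a repressor of myogenic bHLH factors in mouse cells, was at 7.91 CPM (6.65 to 9.33) in quiescent EOM and 9.92 (9.37 to 10.5) in activated EOM, against 1.29 (0.791 to 2.00) and 0.347 (0.243 to 0.480) in quiescent and activated TA. Like Nr2f1 it set EOM above TA, 6.11-fold (3.81 to 10.3) in quiescent and 28.6-fold (20.5 to 41.0) in activated cells. Twist2 was near the limit of detection everywhere, with 3 UMIs in quiescent EOM, 0 in quiescent TA (a limit of 3 UMIs allows up to 0.194 CPM, and the exact interval up to 0.239), 34 in activated EOM (0.273 CPM) and 15 in activated TA (0.145 CPM), and no fold is drawn from it. Scx, the tendon factor scleraxis, was at 17.1 CPM (15.2 to 19.2) in quiescent EOM, 4.596 (3.59 to 5.80) in quiescent TA, 91.8 (90.1 to 93.5) in activated EOM and 179 (177 to 182) in activated TA. Its muscles changed places, at 3.73-fold (2.87 to 4.90) EOM over TA in quiescence and 0.512 (0.4999 to 0.524) after culture.

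**Figure D1:**
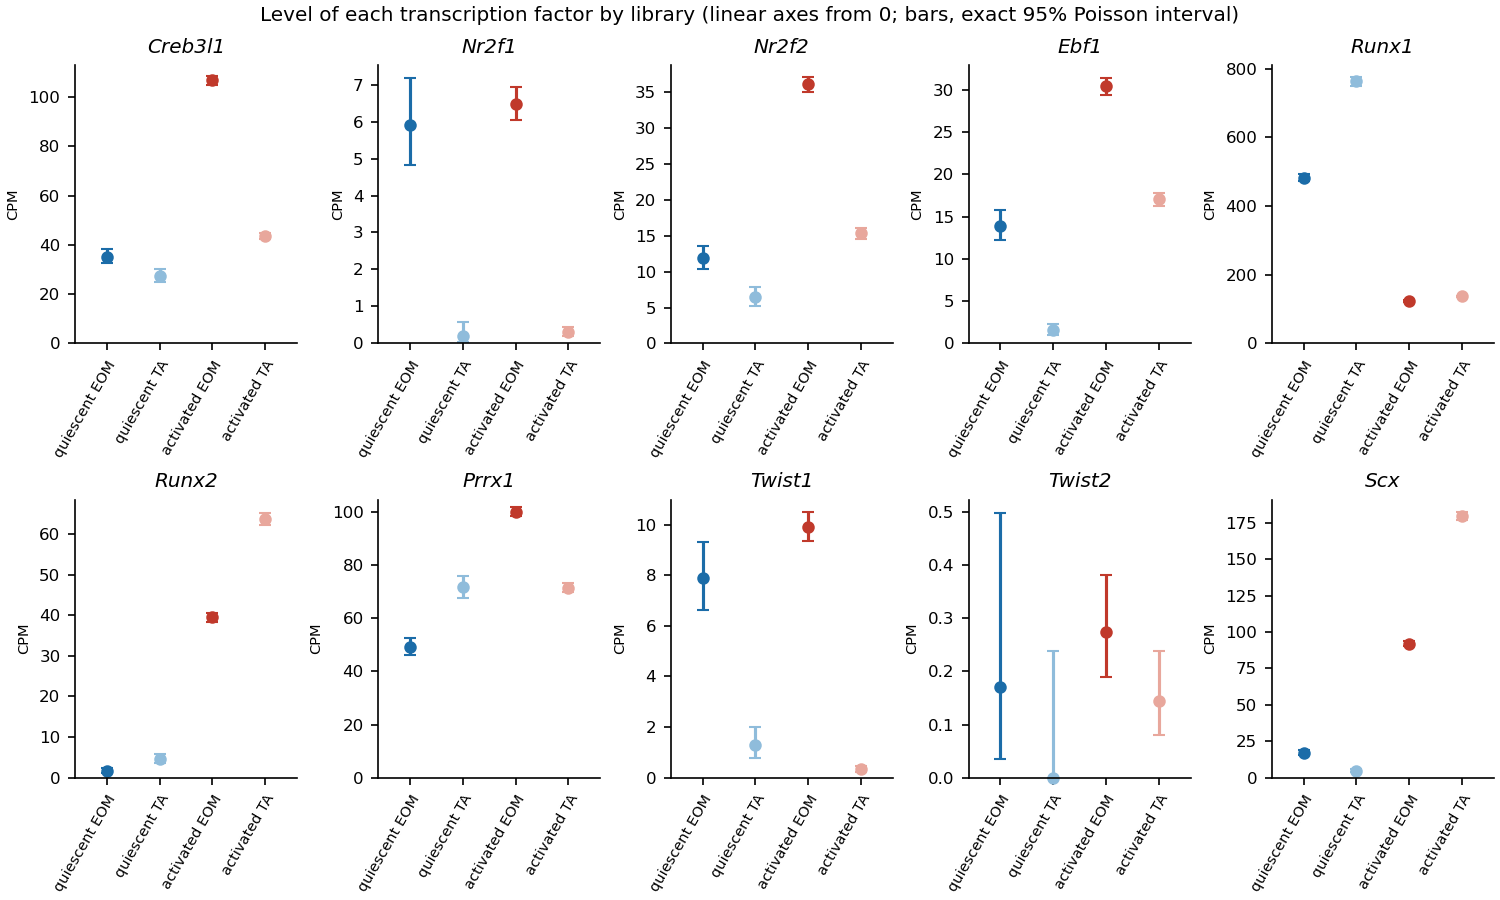
Level of each of the 10 transcription factor genes (y axis, CPM, linear from 0, a separate scale per gene) in the 4 libraries (x axis); points are the level of 1 library and bars the exact 95% Poisson interval. Nr2f1 and Twist1 are high in both EOM libraries, Runx1 in both quiescent libraries and Runx2 and Scx in both activated libraries.

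Between quiescent EOM and TA, 8 genes of the list reached 5 CPM in either library, and 4 of them were 2-fold or more above TA in EOM (Nr2f1, Ebf1, Twist1 and Scx) and 0 lower, where 4.89% of 9234 genes tested were higher and 2.64% lower. Their median log2 ratio was 1.24 (all genes 0.10), taken with a pseudocount of 1 CPM. Runx2 and Twist2 were under 5 CPM in both libraries. None of the 4 reached 20 CPM in either quiescent library. With at most 5% mitochondrial UMIs, which left 265 EOM and 47 TA cells, the log2 ratio of Twist1 turned from 1.96 to -0.75. In the EOM cluster with fibroblast markers Twist1 was at 19.2 CPM against 7.003 elsewhere and Scx at 27.6 against 16.3. In the TA cluster with tenocyte markers Ebf1 was at 6.26 against 1.07, Twist1 at 4.87 against 0.928, and Scx at 1.39 against 4.92. Without both clusters the same 4 genes were at least 2-fold higher in EOM, and Nr2f2 joined them. Over all cells the summed fibroblast markers were at 1228 CPM in quiescent EOM and 1370 in quiescent TA, tenocyte markers other than Scx at 3.07 and 10.9, mural markers at 430 and 264, endothelial markers at 6.94 and 7.18, immune markers at 5.63 and 19.8 and Schwann markers at 5.01 and 13.5. Their part in these ratios was not tested.

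In activated cells 9 genes of the list passed 5 CPM and 4 were at least 2-fold higher in EOM (Creb3l1, Nr2f1, Nr2f2 and Twist1) and 0 lower, where 3.03% of 8887 genes were higher and 1.37% lower. Their median log2 ratio was 0.80 (all genes -0.01). Scx, at a log2 ratio of -0.96, lay just inside the 2-fold line and Ebf1, at 0.80, below it. Among cells thinned to 10000 UMIs with no Mki67 or Top2a, genes of dividing cells, 1028 EOM and 886 TA cells were left. Nr2f2 was past 2-fold there (log2 ratio 1.22), and Twist1 (1.98) and Nr2f1 (1.12) were past 2-fold too but under the 5 CPM minimum, so Creb3l1 was the gene whose ratio fell inside 2-fold. Its log2 ratio was 0.48 in these cells against 1.28 over all cells, that of Ebf1 0.09 against 0.80, and that of Prrx1 -0.14 against 0.48. Of the markers of other cell types in the activated libraries, Lum, Tnmd, Kera and Ptprc had no UMI. Tenocyte markers other than Scx summed to 2.39 CPM in EOM and 0.511 in TA, and fibroblast markers to 201 and 140, with Gsn the highest. Mural markers summed to 2095 and 1200 CPM, nearly all of it Acta2 (2031 and 1179), which cultured myoblasts also express. Pdgfrb, a receptor of mural cells and fibroblasts, stood at 30.5 CPM for EOM and 1.06 for TA, 28.8-fold apart (23.8 to 35.1), and Notch3 was 2.74-fold higher in EOM (2.56 to 2.93). Of the 4 mural markers that reached 5 CPM, these 2 were at least 2-fold higher in EOM and 1, Cspg4, was at least 2-fold lower. Their part in these ratios was not tested.

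Activation was set against quiescence within each muscle. In EOM 6 of 9 genes were at least 2-fold higher in activated cells (Creb3l1, Nr2f2, Ebf1, Runx2, Prrx1 and Scx) and 1 was lower (Runx1). Such differences were common here, with 25.3% of 10076 genes higher and 25.3% lower. In TA 4 of 7 were higher (Nr2f2, Ebf1, Runx2 and Scx) and 1 lower (Runx1), beside 29.3% of 9855 genes higher and 24.8% lower. The median log2 ratio of the list was 1.08 in EOM and 1.13 in TA (all genes 0.05 and 0.14).

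Runx2 had the largest activation ratio in EOM, at 22.4-fold (15.7 to 33.0), and in TA it was 13.9-fold (11.0 to 17.8). Scx was 5.36-fold (4.78 to 6.03) higher in EOM and 39.0-fold (30.9 to 50.01) in TA, where it led the list. Ebf1 stood at 2.19-fold (1.92 to 2.50) and 11.0-fold (7.34 to 17.2). Each of the 3 was past 2-fold in both muscles, apart from Ebf1 in EOM with at most 5% mitochondrial UMIs (log2 ratio 0.97, against 1.08). Nr2f2 was higher by 3.04-fold (2.64 to 3.51) in EOM and 2.37-fold (1.94 to 2.93) in TA, and Creb3l1 by 3.03-fold (2.80 to 3.29) and 1.58-fold (1.43 to 1.75). Prrx1 was 2.03-fold higher (1.90 to 2.18) in EOM and level in TA, at 0.997 (0.936 to 1.06). With at most 5% mitochondrial UMIs (47 quiescent TA cells) the log2 ratio in TA went from 1.13 to 0.12 for Nr2f2, no longer past 2-fold, from 2.82 to 1.66 for Ebf1 and from 3.53 to 6.27 for Runx2, and that of Scx in EOM went from 2.36 to 1.36. Over all deposited barcodes that of Ebf1 in TA was 1.72. Runx1 was lower in culture, at 0.256 (0.249 to 0.263) of the quiescent level in EOM and 0.179 (0.175 to 0.184) in TA. The differences between the muscles in these activation ratios were not tested. Scaling by edgeR's TMM factors moved the median of all genes from 0.05 to 0.47 in EOM and from 0.14 to 0.43 in TA, and turned the log2 ratio of Prrx1 in TA from -0.00 to 0.27. Under TMM scaling the same genes of the list passed 2-fold as without it in both muscles.

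**Figure D2:**
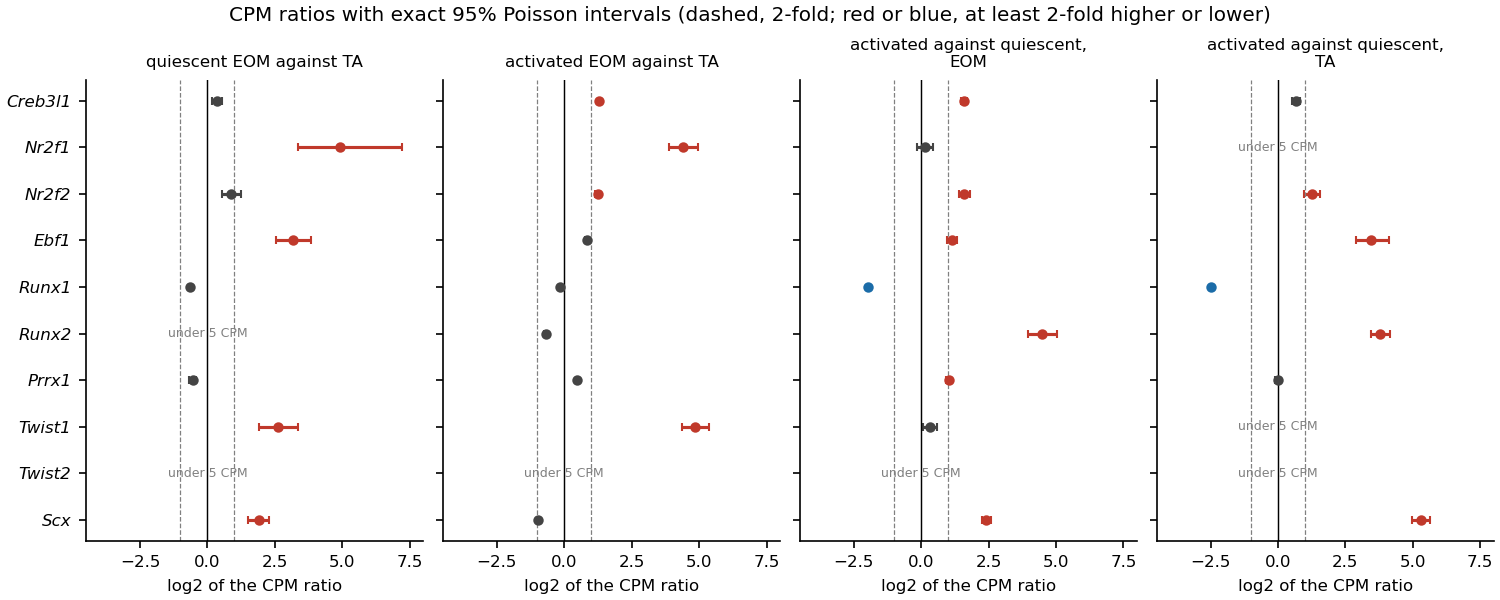
Log2 of the CPM ratio (x axis) of each transcription factor gene (y axis) in the 4 comparisons, without a pseudocount; points are ratios of 1 library each, bars exact 95% Poisson intervals, dashed lines 2-fold, and genes under 5 CPM in both libraries are named as such. Nr2f1 and Twist1 lie far to the EOM side in both states, Scx lies on opposite sides in the quiescent and activated comparisons, and Runx1 alone is past 2-fold on the quiescent side of both activation comparisons.

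Related genes were counted beside the list. Of the other family members (such as Ebf3, Prrx2 and Creb3l2), 0 of 5 measured were at least 2-fold apart between quiescent EOM and TA and 0 of 6 between activated EOM and TA. On activation Prrx2, the paralogue of Prrx1, was 63.4-fold higher (46.3 to 89.2) in EOM and 118-fold (78.6 to 186) in TA, while Creb3l2, a relative of Creb3l1, was at 0.222 (0.204 to 0.241) and 0.203 (0.182 to 0.226). These were the only ones of 6 measured past 2-fold in either muscle. Of the bHLH partners and antagonists, such as the E proteins and Id proteins that bind Twist1 and Scx, 0 of 7 and 0 of 6 were apart between the muscles in quiescent and activated cells. On activation 2 of 7 were higher and 2 lower in EOM, and 4 of 7 higher and 2 lower in TA. Tcf4 and Id4 were the lower ones in both muscles. Id1, among the higher ones in both, was 5.26-fold (4.97 to 5.57) higher on activation in EOM and 7.84-fold (7.39 to 8.31) in TA. Other mesenchymal and EMT (epithelial to mesenchymal transition) factors had 7 of 19 higher and 1 lower in quiescent EOM, among them Foxp1 at 2.19-fold (2.03 to 2.37), and Osr2 at 0.186 (0.154 to 0.224). In activated cells 3 of 17 were higher and 1 lower in EOM. Matrix genes had 8 of 24 higher and 3 lower in quiescent EOM, and 14 of 22 higher and 0 lower in activated EOM (median log2 ratio 1.24). The elastic fibre genes Mfap4, at 19.1-fold (14.2 to 26.4), and Fbln5, at 12.7-fold (10.4 to 15.7), led the quiescent list, and Mgp, at 20.6-fold (19.6 to 21.8), and the collagen VI gene Col6a1, at 13.6-fold (11.9 to 15.6), the activated one. On activation, EMT factors had 3 of 21 higher and 10 lower in EOM and 5 of 16 higher and 8 lower in TA; Snai1 was 10.1-fold (7.88 to 13.3) and 34.6-fold (21.6 to 59.4) higher, and Klf4 at 0.0112 and 0.00958 of its quiescent level. Matrix genes had 9 of 24 higher and 7 lower in EOM, and 4 of 23 higher and 13 lower in TA.

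Co-detection with Col1a2 was then examined inside the activated EOM library, where Col1a2 was at 544 CPM (540 to 548), against 76.0 (74.3 to 77.7) in activated TA, 72.6 (68.7 to 76.7) in quiescent EOM and 28.0 (25.4 to 30.7) in quiescent TA. Each cell was thinned to 10000 UMIs so that depth was equal, which left 5279 cells and out 355 shallower ones. Of these cells 4873 (92.3%) held a Col1a2 UMI and 406 held none, so cells free of Col1a2 were the minority. Among 9 factors that reached 5 CPM, those at least 2-fold higher per cell with Col1a2 numbered 5 (Creb3l1, Nr2f1, Ebf1, Prrx1 and Twist1) and 0 lower, where 6.33% of 8661 genes were higher and 2.17% lower.

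Creb3l1 was found in 56.2% of cells with Col1a2 and 18.2% of those without, a ratio of UMIs per cell of 4.99 (4.05 to 6.21). Nr2f1 was found in 6.01% and 1.48% (4.39, 1.99 to 12.0), Twist1 in 8.17% and 2.71% (3.73, 2.07 to 7.53), Ebf1 in 22.0% and 7.39% (3.52, 2.54 to 5.01) and Prrx1 in 51.9% and 26.1% (2.75, 2.34 to 3.25). The ratios for Nr2f1 and Twist1 rest on 6 and 11 UMIs in the cells without Col1a2. Thinned to 2000 UMIs, where 3154 cells held Col1a2 and 2448 did not, 3 of the 5 were no longer past 2-fold: Nr2f1 was at 1.01 (0.643 to 1.61), Twist1 at 1.47 (0.972 to 2.25) and Creb3l1 at 1.82 (1.60 to 2.07), while Ebf1 was at 2.16 (1.69 to 2.79) and Prrx1 at 2.08 (1.81 to 2.39). Nr2f2 was 1.66-fold higher (1.34 to 2.07), and Runx2 was as frequent in both (30.04% and 29.6%, ratio 1.01, 0.853 to 1.19). The remaining pair lay the other way. Runx1 was found in 65.0% of cells with Col1a2 and 72.7% without (0.782, 0.720 to 0.852), and Scx in 41.5% and 71.4% (0.508, 0.469 to 0.551), just inside the 2-fold line; with another thinning seed Scx passed it. Twist2 had 19 UMIs with and 1 without, too few to place. Without thinning, the share of all activated EOM cells with a UMI was 67.9% for Creb3l1, 66.2% for Prrx1, 56.5% for Scx, 33.1% for Ebf1, 14.7% for Twist1 and 12.2% for Nr2f1.

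These differences were graded with Col1a2. Across cells with 0, 1 to 2, 3 to 9 and 10 or more Col1a2 UMIs (406, 1257, 2719 and 897 cells), Creb3l1 was at 22.2, 46.9, 116 and 184 CPM, Prrx1 at 37.7, 50.9, 102 and 183, and Ebf1 at 9.11, 11.8, 30.8 and 64.2. Twist1 was at 2.71, 4.77, 10.3 and 17.1 CPM, Nr2f1 at 1.48, 3.50, 6.88 and 9.48, and Nr2f2 at 21.9, 26.1, 36.1 and 51.1. Scx ran against them, at 172, 149, 82.2 and 18.7 CPM, as did Runx1 with a smaller span, at 152, 142, 115 and 96.2. Runx2 had overlapping intervals at neighbouring levels, at 37.9, 36.6, 40.0 and 34.8 CPM. The median cell held 2, 3, 3 and 4 of the 10 factors. With 10 or more Col1a2 UMIs against none, 6 genes were at least 2-fold higher and 1, Scx, lower, where 13.4% and 6.35% of genes were.

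**Figure D3:**
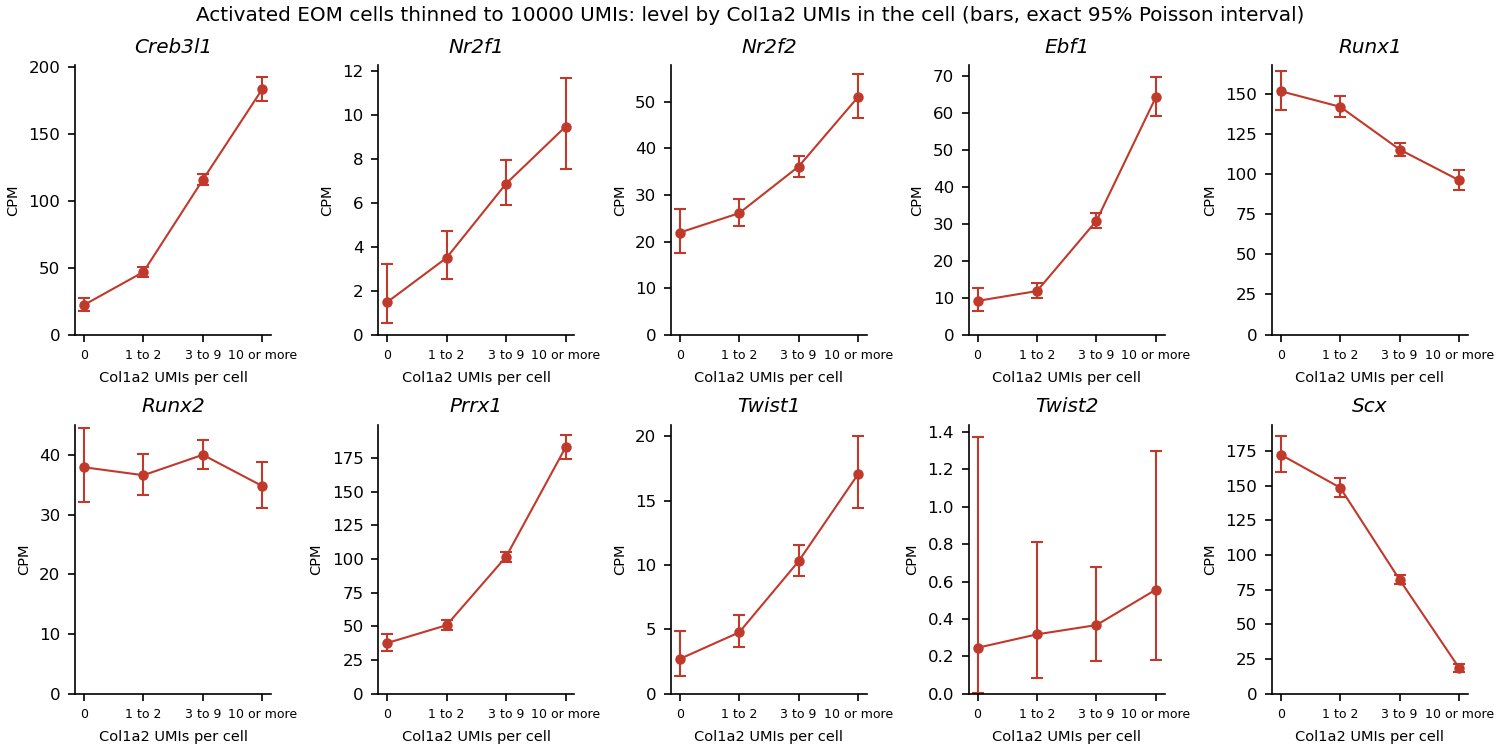
Level of each transcription factor gene (y axis, CPM, linear from 0) in activated EOM cells thinned to 10000 UMIs, by the number of Col1a2 UMIs in the cell (x axis); points are summed over 406, 1257, 2719 and 897 cells of 1 library and bars are exact 95% Poisson intervals. Creb3l1, Prrx1, Ebf1, Twist1, Nr2f1 and Nr2f2 are higher with more Col1a2, Scx and Runx1 lower, and Runx2 nearly flat.

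Col1a2 itself followed the state of the cells. A UMI of Myog, Mymk or Mymx, genes of differentiating and fusing muscle cells, was found in 73.6% of cells with Col1a2 and 93.8% of those without, and one of Mki67 or Top2a in 82.2% and 60.1%. Pax7 was at 77.8 and 19.5 CPM. Fibroblast markers summed to 213 CPM with Col1a2 and 106 without, and 9 of the 11 were higher with it. Of the 4 that reached 5 CPM in the library, 3 were at least 2-fold higher with Col1a2 and 0 lower. With 10 or more against 0 to 2 Col1a2 UMIs in cells with no Myog, Mymk or Mymx UMI, all 4 were. Lum was at 0 in both and Dcn had 1 UMI. Tenocyte markers other than Scx summed to 2.63 and 1.23 CPM, with Tnmd, Kera and Chad at 0, and muscle markers to 4083 and 7375. Mural markers summed to 2124 and 3279 CPM, set by Acta2 (2058 and 3263), but 6 of the 8 were higher with Col1a2, among them Pdgfrb at 32.7 against 3.20 CPM (10.2-fold, 5.95 to 19.2). Median depth was 21930 and 20917 UMIs and the median mitochondrial share 6.19% and 6.73%. The part of these in the co-detection ratios was not tested, except by cell state as follows.

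Among cells that held Myog, Mymk or Mymx at 10000 UMIs the factors again differed with Col1a2. Cells with 10 or more Col1a2 UMIs (478) stood above those with 0 to 2 (1505) by 6.47-fold for Ebf1 (5.23 to 8.03), 5.92-fold for Creb3l1 (5.28 to 6.63), 4.99-fold for Twist1 (3.33 to 7.57), 4.91-fold for Prrx1 (4.42 to 5.46) and 3.50-fold for Nr2f1 (2.17 to 5.65). Scx was at 0.133 (0.109 to 0.162). In cells with no UMI of these 3 genes the same contrast, 419 against 158 cells, was small for most factors. Ebf1 was 2.14-fold higher (1.60 to 2.92) and Scx at 0.390 (0.269 to 0.565), and these were the only genes of the list past 2-fold, where 4.23% of 8661 genes were higher and 1.15% lower. Creb3l1 was at 1.38-fold (1.19 to 1.62) and Prrx1 at 1.29-fold (1.11 to 1.51), while the intervals of Nr2f1, Nr2f2, Twist1, Runx1 and Runx2 included 1. With 0 to 2 Col1a2 UMIs, Creb3l1 and Prrx1 were at 132 and 137 CPM in cells without these genes and at 31.3 and 38.3 in cells with them. A single UMI of Myog, Mymk or Mymx at this depth does not show that a cell was differentiating, nor does a UMI of Mki67 or Top2a show that it was not. Among cells with 10 or more Col1a2 UMIs, Mki67 or Top2a was held by 92.1% of those with Myog, Mymk or Mymx and by 93.1% of those without. With states called at 2000 UMIs, cells with a Col1a2 UMI had 2.14-fold more Creb3l1 (1.68 to 2.74) than cells with none among those with Myog, Mymk or Mymx, and 1.11-fold (0.952 to 1.29) among those without. Among cells that also lacked Mki67 and Top2a (753 with and 334 without Col1a2), Prrx1 was at 1.82-fold (1.38 to 2.43), Ebf1 at 1.63-fold (1.01 to 2.75) and Creb3l1 at 1.15-fold (0.903 to 1.46). Whether the contrast differed between these states was not tested.

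**Figure D4:**
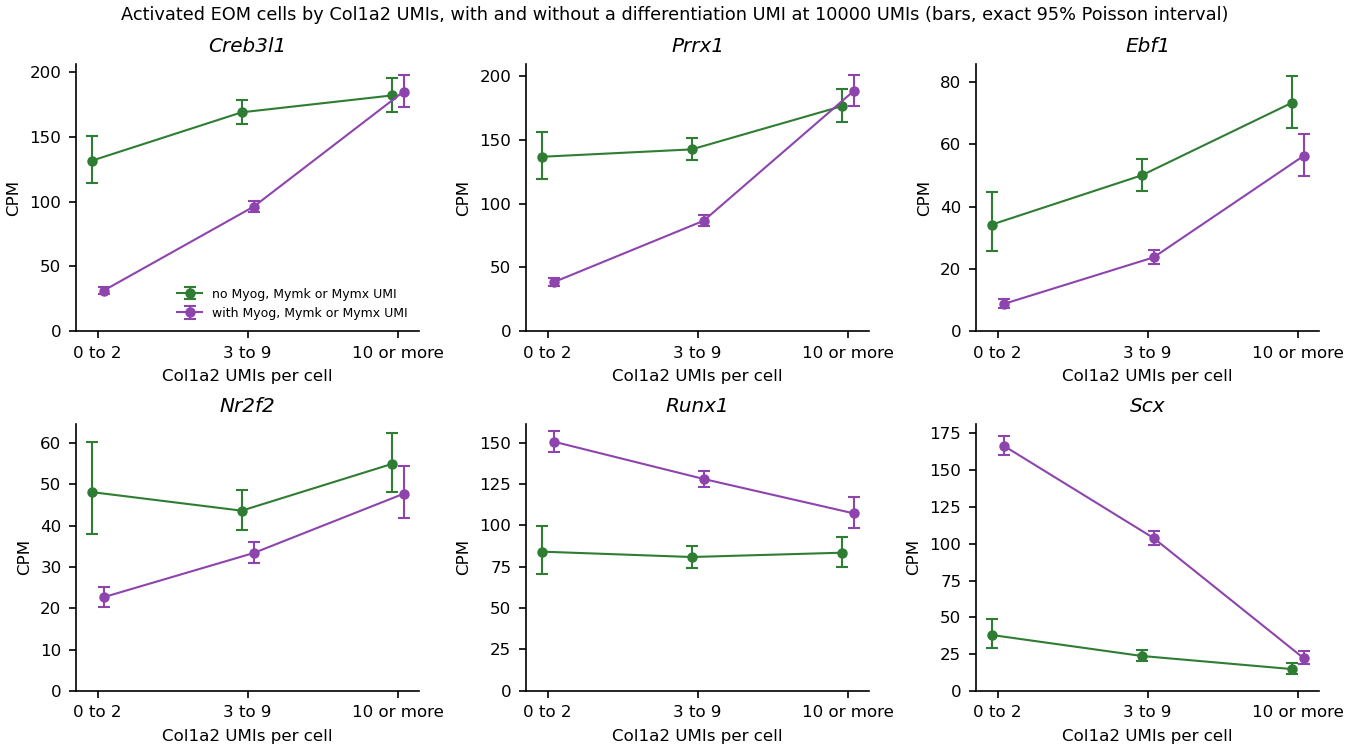
Level (y axis, CPM, linear from 0) of 6 transcription factor genes in activated EOM cells by Col1a2 UMIs in the cell (x axis), for cells without (green) and with (purple) a UMI of Myog, Mymk or Mymx at 10000 UMIs; bars are exact 95% Poisson intervals from 1 library. The lines for Creb3l1 and Prrx1 meet at 10 or more Col1a2 UMIs. Scx goes from 167 to 104 and 22.2 CPM with more Col1a2 in cells with a differentiation UMI, and from 38.0 to 23.7 and 14.8 CPM in cells without.

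Outside activated EOM, libraries held fewer cells with Col1a2. In activated TA 37.5% of 4074 cells had it at 10000 UMIs, and 0 of 7 genes of the list were 2-fold apart between cells with and without, where 0.0584% of 8562 genes were higher and 0% lower. Creb3l1 was 1.75-fold higher (1.59 to 1.92), Ebf1 1.26-fold (1.08 to 1.48) and Prrx1 1.21-fold (1.13 to 1.31), and Scx was at 0.822 (0.783 to 0.863), the directions seen in EOM; the difference between the muscles was not tested. Among TA cells that lacked Myog, Mymk and Mymx, 0 of 7 factors were 2-fold apart as well, where 1.21% of genes were higher and 0.981% lower. Creb3l1 was at 1.83-fold there (1.48 to 2.28), beside 1.77-fold (1.19 to 2.77) in the like EOM cells, of which 25 lacked Col1a2. In quiescent EOM, thinned to 2000 UMIs, 12.6% of 3526 cells had Col1a2. Twist1 was 2.54-fold higher with it (1.31 to 4.69), from 15 UMIs with and 41 without, while Creb3l1 (1.04, 0.700 to 1.49), Ebf1 (1.04, 0.562 to 1.80) and Prrx1 (0.836, 0.574 to 1.18) had intervals that included 1. The quiescent EOM cluster with fibroblast markers, kept here, had more of both Twist1 (19.2 against 7.003 CPM elsewhere) and Col1a2 (110 against 69.7 CPM). Its part in the Twist1 ratio was not tested. Quiescent TA had 91 such cells, too few for most genes.

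Differentiation, called at 2000 UMIs where a missed UMI can hide it, split the list in both cultures. At 2000 UMIs, where 2929 activated EOM cells held Myog, Mymk or Mymx and 2673 did not, Scx was 4.65-fold higher (3.96 to 5.48) in cells with these genes and Runx1 1.87-fold (1.67 to 2.10). Twist1 was at 0.197 (0.113 to 0.326), Ebf1 at 0.239 (0.181 to 0.312), Creb3l1 at 0.298 (0.260 to 0.340), Prrx1 at 0.319 (0.277 to 0.367) and Nr2f1 at 0.465 (0.284 to 0.745), so 1 gene was at least 2-fold higher and 5 lower beside 6.19% and 7.03% of 8659 genes. Runx2 did not separate them (1.05, 0.859 to 1.28). In activated TA (2829 and 1460 cells) Scx was 1.93-fold higher (1.71 to 2.19) and Runx1 1.29-fold (1.13 to 1.47), and Creb3l1 was at 0.449 (0.368 to 0.547), Ebf1 at 0.558 (0.389 to 0.801) and Prrx1 at 0.687 (0.584 to 0.808). Only Creb3l1 passed 2-fold there, where 4.43% of 8560 genes were higher and 2.30% lower.

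Cells of like state were also set side by side between the muscles, since 2673 of 5602 EOM cells but 1460 of 4289 TA cells in culture lacked Myog, Mymk and Mymx at 2000 UMIs. Among cells without these genes, here called undifferentiated, that also held no Mki67 or Top2a (1087 EOM and 614 TA cells), Scx stood at 32.7 CPM for EOM and 117 for TA (0.279, 0.207 to 0.373), whereas among cells with a UMI of Myog, Mymk or Mymx and none of Mki67 or Top2a, here called differentiating (1754 and 1708 cells) it was at 170 and 225 (0.754, 0.677 to 0.841). Prrx1 was 1.61-fold higher in EOM in the former (1.29 to 2.00) and at 0.637 (0.503 to 0.804) in the latter. Its order between the muscles thus differed between the states as called at 2000 UMIs. At that depth a missed UMI can make a cell look undifferentiated or not dividing. At 10000 UMIs 1311 of 5279 EOM and 506 of 4074 TA cells lacked Myog, Mymk and Mymx. Mki67 and Top2a were absent from 1028 EOM and 886 TA cells at 10000 UMIs. Creb3l1 was 2.25-fold higher (1.78 to 2.88) in undifferentiated and 1.17-fold (0.895 to 1.53) in differentiating cells. Runx1 was at 0.634 (0.501 to 0.803) in the former and 1.07 (0.949 to 1.22) in the latter, and over all activated cells with no Mki67 or Top2a UMI at 10000 UMIs its log2 ratio turned from -0.15 to 0.06. Runx2 was lower in EOM in both, at 0.397 (0.278 to 0.565) and 0.539 (0.422 to 0.686), and Nr2f2 higher in both, at 2.01-fold (1.33 to 3.13) and 2.50-fold (1.64 to 3.88).

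Pairs of factors in the same activated EOM cell gave the same division. At 10000 UMIs Twist1 and Nr2f1 were found together in 42 cells, 1.81 times the 23.2 that their single shares would give. Ebf1 and Twist1 shared 139 cells (1.63 times), Ebf1 and Nr2f1 91 (1.46 times) and Creb3l1 and Ebf1 849 (1.44 times). Scx was found with the same factors less often, at 0.418 times with Twist1 (75 cells), 0.467 times with Ebf1 (226 cells) and 0.519 times with Nr2f1 (68 cells). Runx2 was near 1 with every other member but Twist2, from 0.914 to 1.07. Within the 1311 cells that lacked Myog, Mymk and Mymx most pairs were nearer to 1, with Creb3l1 and Ebf1 at 1.02 times and Ebf1 and Twist1 at 0.994. A pair cannot exceed the inverse of its larger single share, so nearness to 1 is partly set by how frequent the genes are. Creb3l1 was found in 79.9% of the 1286 of these cells that held Col1a2. Nr2f2 and Twist1 stood at 1.24 times there (87 cells) and Nr2f1 and Twist1 at 1.16 (20 cells), and Scx at 0.717 with Twist1 (22 cells), 0.766 with Nr2f1 (15 cells) and 0.832 with Prrx1 (127 cells).

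**Figure D5:**
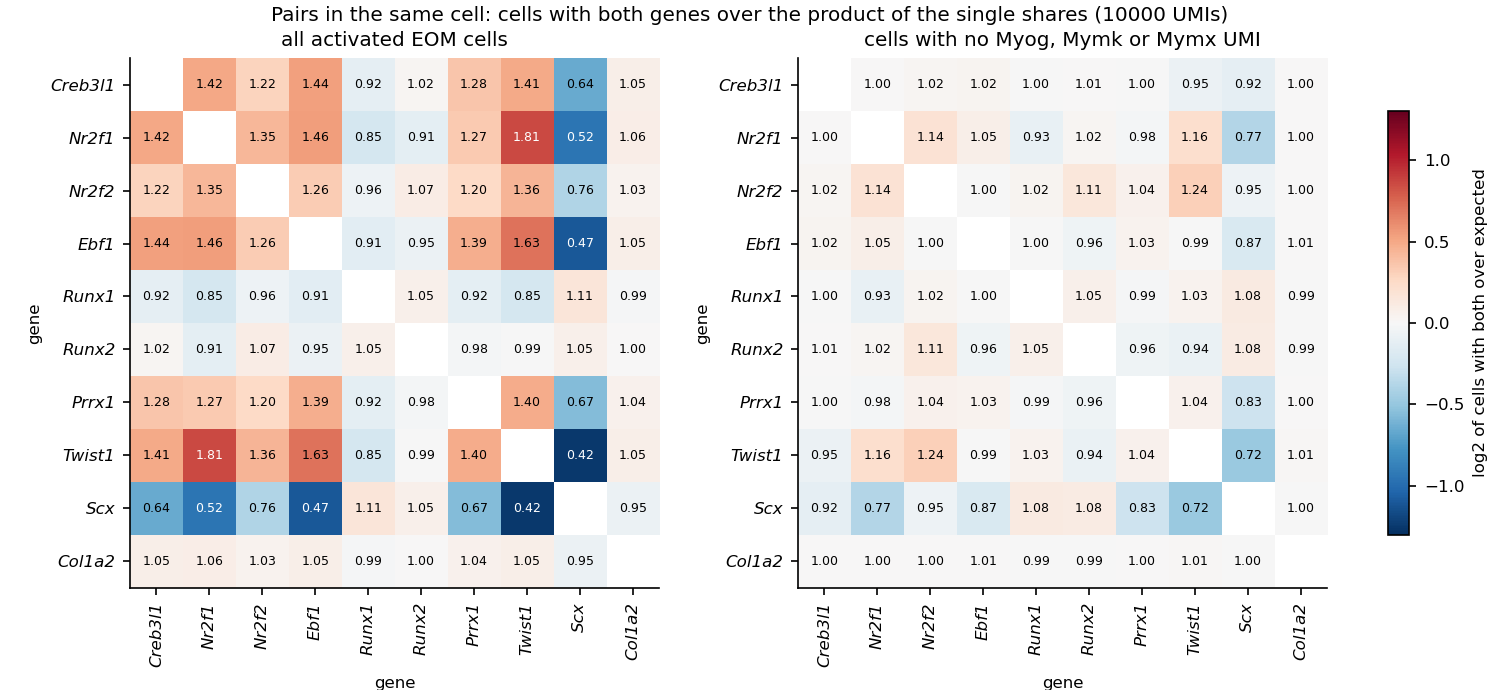
Number of activated EOM cells holding both genes of a pair over the number given by the product of their single shares (cell values; colour, log2 of that ratio), for all cells thinned to 10000 UMIs (left) and for the 1311 cells with no Myog, Mymk or Mymx UMI (right); both axes list 9 transcription factor genes and Col1a2. In all cells Scx is under 1 with Creb3l1, Nr2f1, Nr2f2, Ebf1, Prrx1 and Twist1, and most pairs are near 1 in the right panel. The inverse of the larger single share is the highest value a pair can take, so pairs with Col1a2, held by 1286 of the 1311 cells, lie near 1 by construction.

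Among the other mesenchymal and EMT factors, 5 of 16 measured were at least 2-fold higher with Col1a2 in activated EOM and 0 lower, namely Snai2 (3.06-fold, 2.30 to 4.15), Foxc2, Klf4, Sox4 (3.36-fold, 2.64 to 4.34) and Heyl (4.77-fold, 3.16 to 7.55). Of other family members 1 of 6 was, Ebf3 at 2.25-fold (1.63 to 3.18), and of bHLH partners 0 of 6. Matrix genes had 13 of 21 higher and 0 lower, including Mgp, matrix Gla protein, at 10.8-fold (8.96 to 13.0).

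The free RNA of a droplet library can place a UMI in a cell that does not express the gene. As a reference, 13 endothelial-like cells of quiescent TA that reached 2000 UMIs (median depth 5194 UMIs over all 16 such cells, against 5033 in the kept cells) were read. Creb3l1, Nr2f1, Nr2f2, Runx2, Twist1, Twist2 and Scx were found in 0 of 13, where a limit of 3 cells allows a share of up to 23.1% and the exact interval up to 24.7%, and Prrx1 in 1. Runx1 was found in 3 and Ebf1 in 6. Without thinning, the 16 cells held 32 UMIs of Ebf1 (309 CPM), 14 of Runx1 (135 CPM) and 5 of Nr2f2 (48.3 CPM). They also held 3 of Prrx1 and 1 of Creb3l1, so 0 of 13 does not show that Nr2f2 and Creb3l1 were absent. At 2000 UMIs the kept quiescent cells held Runx1 in 54.1% (EOM) and 66.3% (TA) and the other factors in 0% to 10.9%, all under that limit. So few cells of 1 library cannot measure free RNA in the others, and low shares are not read as expression.

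By the likeness rule, the 3 genes nearest to each factor in centred log2(CPM + 1) over the 4 libraries were listed for the 7 factors with at least 20 CPM in a library, as a description with n = 4 points. Nr2f2 lay closest to Slc38a4, an amino acid transporter (distance 0.0151), which was at 10.2, 5.50, 31.1 and 13.1 CPM. Runx1 was nearest to Zfp655, Zfand5 and Spry2 (0.104 to 0.139), Prrx1 to Tpbg, Desi2 and Tmem120a (0.188 to 0.245), and Creb3l1 to Adgrl2, Tspan17 and Col26a1 (0.299 to 0.323). Runx2 was nearest to Dapk2, Sap30 and Ddx39 (0.395 to 0.484), Scx to Aif1l, Sh3bp4 and Sdhaf4 (0.381 to 0.702), and Ebf1 to Ralgps2, N4bp3 and Pgf (0.401 to 0.706).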

How the data were processed

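Droplet single-cell libraries (10x Genomics) of quiescent and activated EOM and TA cells were read from the UMI counts per gene and barcode that the authors deposited. Per the submitters' processing notes, Cell Ranger 3.0.2 and the mm10 build were used; the sources used here give neither the annotation release nor the strand setting. Of 31055 features, 30934 matched GENCODE vM21 by gene ID.

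Barcodes were kept with at least 500 genes and at most 10% mitochondrial UMIs. Scrublet's automatic threshold in scanpy 1.11.5 marked 1 cell in all and had thus failed, so the highest doublet scores were removed by rank, 0.8% per 1000 barcodes. Libraries were clustered separately (igraph 0.11.9), and 16 endothelial-like cells of quiescent TA were left out. Clusters named for another cell type were left out only where Pax7 was under 0.5 of its level in the other cells, a limit set after the clusters were seen. UMIs were summed per library and scaled to CPM. Ratios have exact 95% Poisson and shares exact binomial (Clopper-Pearson) intervals, which cover counting error only. A gene counts as apart at 5 CPM or more in either library and a ratio of at least 2 or at most 0.5; with 1 library per group no test was made. For co-detection, cells were thinned without replacement to 10000 UMIs, or to 2000 where quiescent cells or differentiation states were compared. States were called at 2000 UMIs because most activated EOM cells held Myog, Mymk or Mymx at 10000 (73.6% of those with Col1a2 and 93.8% of those without).

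All 10 members are named. Genes of the related lists are named where they had at least 20 CPM in a library and a ratio of at least 2 or at most 0.5, up to 4 per list and comparison; likeness takes the 3 nearest genes. Foxc2, Tcf4 and Id4, completing counts, and the markers Gsn, Acta2, Pdgfrb, Notch3, Cspg4 and C1qa were named after their values were seen. The members and all lists were chosen with earlier results of these data known. Alternatives covered the mitochondrial limit, detected genes, doublets, scaling (TMM of edgeR 4.0.16 and median of ratios), the CPM minimum, the pseudocount, thinning and cell state. The ratio count and the thinning were tested on simulated data.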

Additional observations from a re-analysis of the deposited data

Results flagged for a closer look

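Members whose EOM to TA ratio lay on opposite sides of 1 in quiescent and activated cells, with intervals that did not include 1, were looked for. Scx was at 3.73 (2.87 to 4.90) in quiescent and 0.512 (0.4999 to 0.524) in activated cells. Prrx1 was at 0.687 (0.628 to 0.751) in quiescent and 1.40 (1.36 to 1.44) in activated cells. Each ratio compares 1 library with 1 library, and the difference between the states was not tested.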

How the results depend on the processing

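The count of members at least 2-fold apart was within 1.5 times under each alternative except the following. With at least 20 CPM required it was 0 (main 4) between quiescent muscles, 2 (main 4) between activated muscles, 3 (main 5) for activation in TA and 3 (main 5) for co-detection with Col1a2. Without cells holding Mki67 or Top2a it was 1 between activated muscles (Nr2f2), where Twist1 and Nr2f1 were still past 2-fold (log2 1.98 and 1.12) but under 5 CPM, and Creb3l1 was at 0.48. Co-detection counts were 2 (Ebf1 and Prrx1) when thinned to 2000 UMIs, 2 (Ebf1 and Twist1) in cells with no Myog, Mymk or Mymx UMI (25 of them without Col1a2), and 1 higher with Scx lower for 10 or more against 0 to 2 Col1a2 UMIs in such cells, an alternative chosen after seeing the data. The cause was not tested, apart from the CPM minimum, which leaves fewer genes. Twist1 between quiescent muscles reversed from 1.96 to -0.75 (log2) with at most 5% mitochondrial UMIs, which left 265 EOM and 47 TA cells. Of 372 alternative log2 ratios of members 9 changed sign, 4 of them with at most 5% mitochondrial UMIs, as did 6 of 123 co-detection ratios, each for Runx2 or Nr2f2. The co-detection ratio had no value for Nr2f1 and Twist1 without Mki67 or Top2a, or for Twist1 with at most 5% mitochondrial UMIs, where cells without Col1a2 held no UMI of them. Cells with none of Myog, Mymk, Mymx, Mki67 and Top2a gave no co-detection value at 10000 UMIs, as under 20 lacked Col1a2. No paired analysis was possible because each group has 1 library. Depth limits Twist2 everywhere and Nr2f1 and Twist1 in TA.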
